A study of Homo sapiens with 6 samples.

Results

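The genes analysed here are the families that supply the partners of the EWSR1::ATF1 fusion, together with the coactivators of the CREB proteins, in the clear cell sarcoma line SU-CCS-1. They were chosen by name and number 9 of the 18118 genes in the count table: EWSR1 and TAF15 of the FET family, ATF1, CREB1 and CREM of the CREB family, the coactivators CRTC1, CRTC2 and CRTC3, and the acetyltransferase CREBBP. SU-CCS-1 is an established line that carries the fusion, called EA1 here. RNA was sequenced from 6 libraries, 2 of cells given a control siRNA (siNeg1, labelled a scramble control), 2 of cells given EA1 siRNA 1 and 2 of cells given EA1 siRNA 2. By the study's methods 5 pmol of siRNA was delivered with a lipid reagent and RNA was taken 48 h later. All groups are the same line and all carry the fusion, so that the untreated line itself and a line without EA1 were not compared here. EA1 siRNA 1 and EA1 siRNA 2 are named EA1-1 and EA1-2 in the labels, and their sequences were not used here. The labels do not say that replicates came from separate cultures, so that p-values measure the spread between these libraries, which may be technical.

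FET proteins are RNA-binding proteins whose low-complexity N-terminal region is joined, in fusions of this kind, to the DNA-binding part of a transcription factor. ATF1, CREB1 and CREM bind the cAMP response element (CRE) as dimers through a basic leucine zipper, and protein kinase A phosphorylates them in the kinase-inducible domain. CREBBP (CBP) is recruited by the phosphorylated domain, whereas CRTC proteins bind the leucine zipper after they lose phosphates placed by salt-inducible kinases and enter the nucleus. CREM also has an internal promoter that gives short repressor forms, known as ICER.

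Counts summed to between 5942808 and 7599305 per library, and 3 counts corresponded to between 0.395 and 0.505 CPM of those unadjusted sums. All other CPM values are normalised, the counts of a gene scaled to the TMM-adjusted size of its library. All 9 members were among the 14571 genes tested, with at least 62 counts in every library. Of the 7 lineage markers, SOX10 stood between 786 and 979 CPM, MITF between 636 and 1170 CPM and PMEL between 1040 and 7770 CPM over the 6 libraries. ERBB3 stood between 170 and 697 CPM, S100B between 28.3 and 209 CPM and TYR between 11.5 and 136 CPM, whereas MLANA reached at most 4.27 CPM and was at 0 in 1 library. Of 5 markers of other cell types looked up (PTPRC, PECAM1, EPCAM, KRT18 and MYOD1), none was among the 18118 genes analysed. PMEL, S100B, TYR, MLANA and MITF were called higher in the knockdown with each EA1 siRNA, and their part in the results below was not tested. In bulk RNA, fewer cells that express a gene and less RNA of it per cell cannot be told apart.

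Throughout, log2FC is control minus knockdown, so that a positive value is a gene higher in control, and a gene was called where the quasi-likelihood test of edgeR gave a Benjamini-Hochberg adjusted p under 0.05 over all genes tested. With EA1 siRNA 1, 3 of the 9 members were called higher in control (ATF1, CREM and TAF15), where 20.3% of all genes were, and 2 were called lower (CREB1 and CRTC3), where 19.9% of all genes were. With EA1 siRNA 2 the same 3 members were called higher in control, against 18.2% of all genes, and CREB1 and CRTC1 were called lower, against 18.5%. These shares of members lie above the background in the first direction and near it in the second, over only 9 genes. ATF1 is part of EA1, the siRNA target, and the members were chosen with earlier results of these data known. No excess of called genes among the members is therefore read from these counts. For EA1 siRNA 1 and 2 in turn, the members had a median log2FC of 0.11 and 0.15, where the median over all genes was -0.02 and 0.00. Both comparisons use the same control libraries, so their values are set side by side and are not independent.

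**Figure D1:**
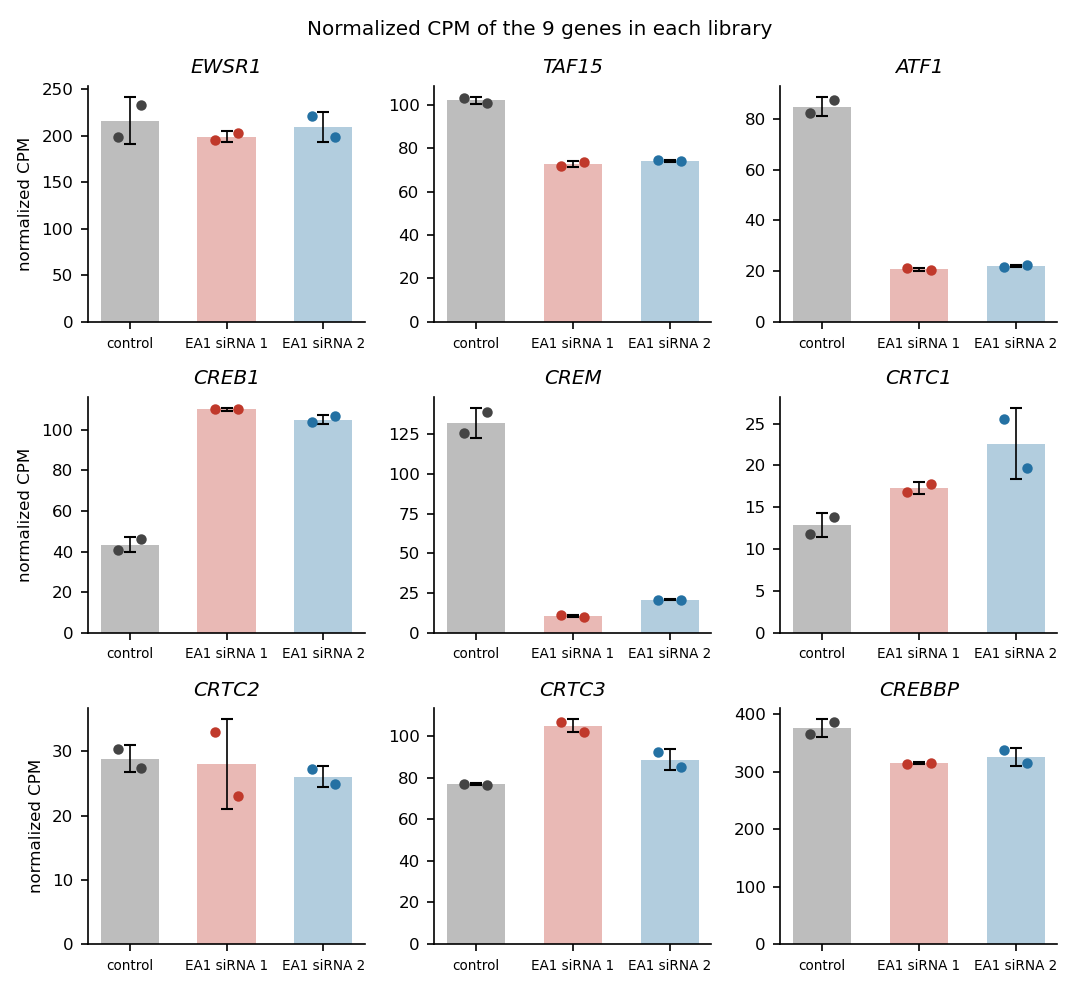
Normalised CPM of each of the 9 members (y axis, linear from 0) in control, EA1 siRNA 1 and EA1 siRNA 2 cells, with bars at the mean of 2 libraries, error bars of 1 SD and a point per library. ATF1 and CREM lie below every control library in all 4 knockdown libraries, CREB1 lies above, and EWSR1 overlaps between conditions.

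ATF1 supplies the DNA-binding end of EA1, and its reads come from the fusion and from the unrearranged gene alike. A fall in ATF1 therefore does not by itself show how far EA1 fell. ATF1 (ENSG00000123268, chr12:50763710-50821162 of hg38) was at 82.2 and 87.4 CPM in the control libraries, 21.2 and 20.3 CPM with EA1 siRNA 1, and 21.7 and 22.3 CPM with EA1 siRNA 2. All 4 knockdown libraries thus lay within a narrow band far below both control libraries. The log2FC was 2.03 (95% interval 1.75 to 2.31) with EA1 siRNA 1 and 1.94 (1.66 to 2.22) with EA1 siRNA 2, which leaves 24.5% and 26.0% of the control level (edgeR adjusted p = 6.70e-07 and 1.05e-06). No 50-base stretch of the 2915 in ATF1 transcripts was shared with transcripts of any other gene, and no pair of members among the 36 shared one. CREM shared 2.39% of its 50-base stretches and CREB1 0.38% with genes outside the members.

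EWSR1, an RNA-binding protein with a role in splicing, supplies the other end of EA1. EWSR1 (ENSG00000182944, chr22:29268009-29300525) was at 198 and 233 CPM in control, 195 and 203 CPM with EA1 siRNA 1, and 221 and 198 CPM with EA1 siRNA 2. The 3 conditions overlapped. The log2FC was 0.11 (95% interval -0.13 to 0.36) with EA1 siRNA 1 and 0.04 (-0.20 to 0.29) with EA1 siRNA 2, so that changes within these bounds are not told apart from 0. Per kilobase of annotated exon, EWSR1 was at 20.9 ± 2.44 CPM (SD, n = 2) in control and ATF1 at 30 ± 1.31 (SD, n = 2). On this scale the control level exceeded the knockdown level by 22.6 and 22.2 CPM per kilobase for ATF1 and by 1.57 and 0.616 for EWSR1, with EA1 siRNA 1 and 2 respectively. The ATF1 differences are many times the SD of the ATF1 control libraries, while both EWSR1 differences are smaller than the SD of the EWSR1 control libraries. The scale divides by all annotated exons of each gene, whereas EA1 holds only part of each, so these differences do not measure the fusion. Gene-level counts do not separate the fusion transcript from the unrearranged alleles.

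TAF15, the FET relative of EWSR1 and itself an RNA-binding protein, is not part of EA1. TAF15 (ENSG00000270647, chr17:35809482-35864615) was at 103 and 101 CPM in control, 71.8 and 73.8 CPM with EA1 siRNA 1, and 74.6 and 74.0 CPM with EA1 siRNA 2. No knockdown library reached a control library. The log2FC was 0.49 (95% interval 0.27 to 0.71) with EA1 siRNA 1 and 0.46 (0.24 to 0.68) with EA1 siRNA 2 (edgeR adjusted p = 0.00212 and 0.00358), and the knockdown stood at 71.2% and 72.7% of control. TAF15 kept its call in all 12 alternative analyses of each comparison. Of its 50-base stretches 3.61% were shared with other genes, against 3.94% for EWSR1.

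CREM, a CREB family member with activator and repressor forms, fell furthest of the 9 members. CREM (ENSG00000095794, chr10:35126791-35212958) was at 126 and 139 CPM in control, 11 and 10.2 CPM with EA1 siRNA 1, and 21.0 and 20.9 CPM with EA1 siRNA 2. Every knockdown library was below every control library, and both libraries of EA1 siRNA 2 were above both of EA1 siRNA 1. The log2FC was 3.64 (95% interval 3.35 to 3.94) with EA1 siRNA 1 and 2.66 (2.39 to 2.93) with EA1 siRNA 2, or 8.01% and 15.8% of control (edgeR adjusted p = 7.95e-08 and 1.91e-07). In the direct comparison CREM was 1.98-fold higher with EA1 siRNA 2 than with EA1 siRNA 1 (edgeR adjusted p = 0.00937). It was the 1 member of 9 called between the EA1 siRNAs, where 0.796% of all genes were called higher with EA1 siRNA 1 and 1.44% higher with EA1 siRNA 2. Without EA1 siRNA 1 replicate 1 the adjusted p was 0.0565 and without its replicate 2 it was 0.143, so that this call needs both of those libraries, while the log2FC between the EA1 siRNAs stayed near -1 (-1.04 and -0.93). Opposite-strand overlap with CUL2 and with a long noncoding RNA covers 3.4% and 3.6% of CREM exon bases, and strand handling in the counting is not given in the sources used here.

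CREM was also the 1 member with a palindromic CRE, TGACGTCA, in a window of 250 bases before to 50 after an annotated start site. It is printed because CREM fell furthest. Sequences are from RefSeq, build GRCh38.p14, plus strand, with capitals marking the 8 matched bases. The other lines show matches to the looser pattern TGANNTCA, which includes the CRE, beside other CREM start sites, the first pair beginning 59 and 48 bases before one start site and the last 56 bases before another.

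CREM CRE, chr10:35195841-35195870: gagctgcacatTGACGTCAgctccgagtca

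CREM variant, chr10:35195063-35195092: tgataggctagTGATGTCAttgtgatgtca

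CREM variant, chr10:35195074-35195103: tgatgtcattgTGATGTCAgtcctcctgct

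CREM variant, chr10:35167497-35167526: cagctatactaTGACATCAtaaaccccatc

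The CRE lies 69061 bases downstream of the first base of CREM. It begins 2 bases after 1 RefSeq start site and 50 bases before another, within an intron of 29 of the 48 GENCODE 44 transcripts of CREM and in no exon of them. CREM has 44 distinct GENCODE start sites, of which 22 lie within 1000 bases of its first base and 9 within 1000 bases of the CRE. Of the 35116 RefSeq promoter windows, 1.85% held the CRE on either strand, 11.51% held TGANNTCA, 24.55% held the CRE core TGACG, counted also inside a full CRE, and 4.95% held TGAGTCA. CREM, CRTC3 and CREBBP windows held TGACG, in CREM also apart from the CRE, and no member's window held TGAGTCA. TAF15 and CRTC2 have no entry in that table. Over GENCODE start sites of protein-coding genes 1.71% of windows held the CRE, and 3.82% of the genes had such a window. For CREM 5 of the 44 windows held it, all of them the same single element, and the windows of the other 8 members did not. CREM had the most windows of the 9 members, the others having between 4 (CRTC1) and 20 (CREBBP). A gene with more windows has more places for a match, and the share of 3.82% is not adjusted for this. A match is a description of sequence, and counts summed over a gene do not say from which start site the CREM reads came.

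**Figure D2:**
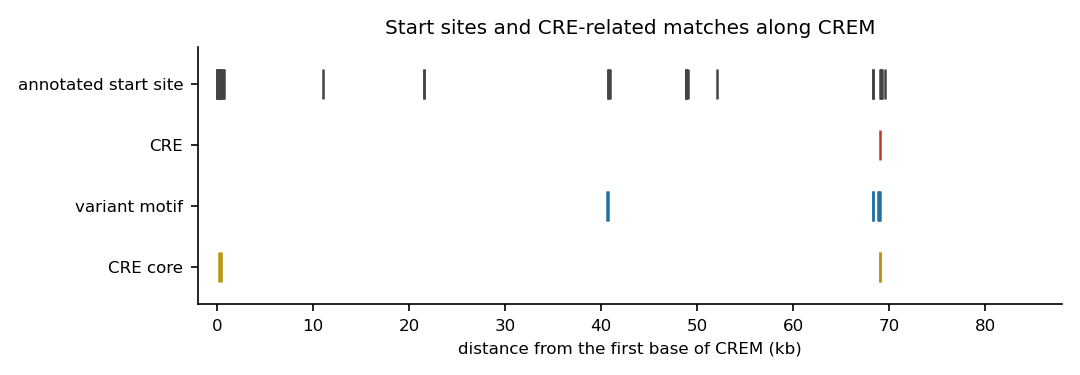
Annotated GENCODE start sites along CREM, and matches to the CRE, to its looser pattern (variant motif) and to its core TGACG (CRE core) within RefSeq promoter windows, by distance from the first base of the gene in kilobases. Start sites gather near the first base, with 22 within 1000 bases, and again near the CRE, with 9 within 1000 bases of it.

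CREB1, the family member that gives the CREB proteins their name and is expressed in most cell types, moved the opposite way. CREB1 (ENSG00000118260, chr2:207529737-207605988) was at 40.9 and 46.0 CPM in control, 110 and 110 CPM with EA1 siRNA 1, and 104 and 107 CPM with EA1 siRNA 2. All knockdown libraries lay above both control libraries, by 2.53-fold on average with EA1 siRNA 1 and 2.42-fold with EA1 siRNA 2. Both differences were called (edgeR adjusted p = 3.29e-06 and 5.75e-06), and the call held in all 12 alternatives of each comparison. The log2FC of CREB1 was -1.34 (95% interval -1.57 to -1.10) and -1.28 (-1.51 to -1.04), with no detectable difference of one EA1 siRNA from the other (log2FC 0.06, 95% interval -0.16 to 0.29).

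**Figure D3:**
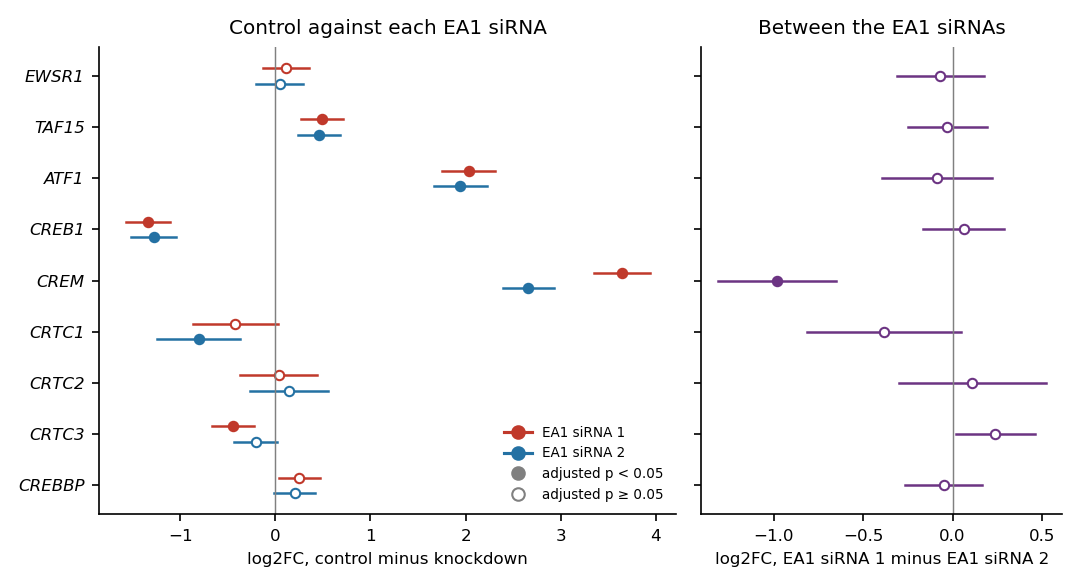
Log2FC of each member with 95% intervals, control minus knockdown on the left and EA1 siRNA 1 minus EA1 siRNA 2 on the right, with filled points for called values and open points for the others. The intervals of CREM against control, 3.35 to 3.94 and 2.39 to 2.93, do not overlap, and CREM is the 1 filled point on the right.

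The make-up of the CREB family differed between conditions. Of the summed CPM per kilobase of exon of the 3 genes, ATF1 held 53.3% and 52.3% in the control libraries, CREM 40.5% and 41.3%, and CREB1 6.18% and 6.42%. With EA1 siRNA 1, CREB1 held 49.2% and 50.2%, ATF1 40.5% and 39.8%, and CREM 10.4% and 9.97%. With EA1 siRNA 2, CREB1 held 43.0% and 43.2%, ATF1 38.5% and 38.7%, and CREM 18.5% and 18.0%. CREB1 thus went from the smallest to the largest of the 3 shares with each EA1 siRNA. The summed level was 54.5 and 59.1 CPM per kilobase in control, 18.5 and 18.0 in the EA1 siRNA 1 libraries, and 19.9 and 20.4 in those of EA1 siRNA 2. ATF1 reads include those of EA1, so the ATF1 share and the summed level cover the fusion as well as the unrearranged gene. These shares have no test, since they follow from the 3 genes' own values. They depend on the length used: with the longest transcript of each gene in place of the union of exons, CREM and not ATF1 held the largest share in control.

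**Figure D4:**
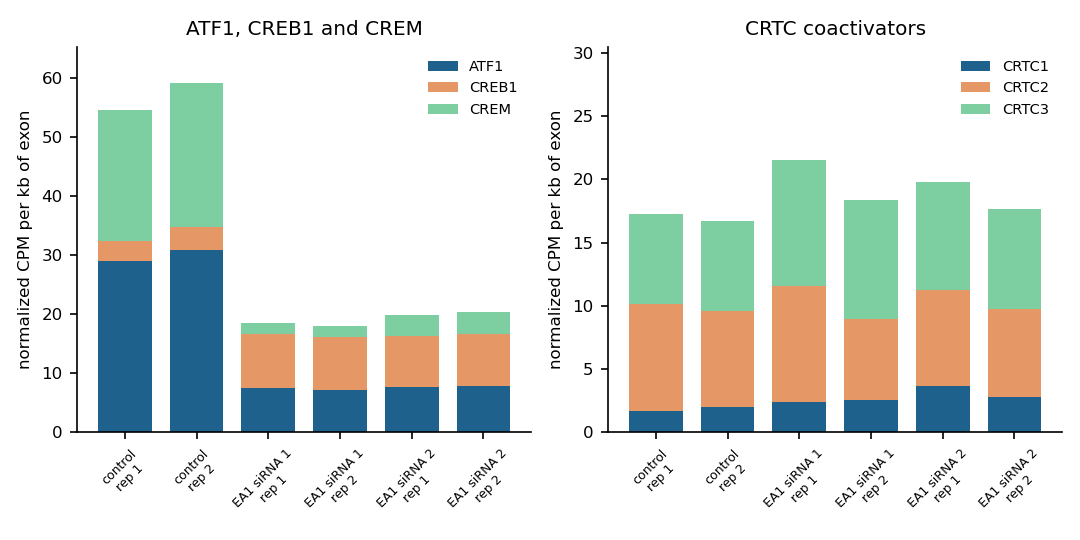
CPM per kilobase of exon in each of the 6 libraries (y axis, linear from 0), stacked by gene for the CREB family on the left and the CRTC coactivators on the right. The CREB stack is 54.5 and 59.1 high in control and between 18.0 and 20.4 in the knockdown libraries, where CREB1 takes the largest part. The ATF1 part includes reads of EA1.

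Ranked by CPM per kilobase in control, the members ran ATF1, CREBBP, CREM, EWSR1, CRTC2, TAF15, CRTC3, CREB1 and CRTC1, with ATF1 at the 91.5th percentile and CRTC1 at the 26.7th of 14532 genes. The libraries of CREBBP and CREM, and those of CREM and EWSR1, overlapped, so that these neighbours in the order do not differ beyond their spread. With EA1 siRNA 1, ATF1 stood at the 61.4th percentile, CREM at the 26.5th and CREB1 at the 67.4th. With EA1 siRNA 2 these were the 62.8th, 42.6th and 66.0th. The order depends on the length used: by longest transcript, CREM ranked 1, ATF1 2 and CREBBP 3 in control, and CRTC2 went from rank 5 to rank 7. In control, CREM had stood at the 87.9th and CREB1 at the 41.0th percentile.

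The CRTC coactivators, which work on the same zipper as CREB proteins without needing phosphorylation of them, gave mixed values. CRTC1 (ENSG00000105662, chr19:18683678-18782333), known from neurons, was at 11.8 and 13.9 CPM in control, 16.8 and 17.8 CPM with EA1 siRNA 1, and 25.6 and 19.7 CPM with EA1 siRNA 2. Every knockdown library was above every control library. CRTC1 was called with EA1 siRNA 2, at 1.75-fold higher than control (edgeR adjusted p = 0.00819), and was not called with EA1 siRNA 1 (log2FC -0.42, 95% interval -0.87 to 0.02). The call was lost without control replicate 1 (adjusted p = 0.0604) and without EA1 siRNA 2 replicate 1 (adjusted p = 0.0670), and the difference between the EA1 siRNAs was not called (log2FC -0.38, 95% interval -0.81 to 0.05). CRTC3 (ENSG00000140577, chr15:90529923-90645345), a relative with the same domains, was at 77.2 and 76.5 CPM in control, 107 and 102 CPM with EA1 siRNA 1, and 92.2 and 85.4 CPM with EA1 siRNA 2. The groups did not overlap, yet CRTC3 was called with EA1 siRNA 1 only, at 1.36-fold higher than control (edgeR adjusted p = 0.00426). With EA1 siRNA 2 the log2FC was -0.21 (95% interval -0.43 to 0.02), and the difference between the EA1 siRNAs, 0.24 (0.02 to 0.46), was not called (edgeR adjusted p = 0.253, 0.0361 unadjusted).

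CRTC2 (ENSG00000160741, chr1:153947669-153958615), known from glucose production in the liver, was at 30.4 and 27.4 CPM in control, 33.0 and 23.1 CPM with EA1 siRNA 1, and 27.2 and 25.0 CPM with EA1 siRNA 2. It was not called, and the libraries of EA1 siRNA 1 lay on either side of the control libraries. Its intervals, -0.37 to 0.44 and -0.26 to 0.55 on the log2 scale, leave room for changes of moderate size. Per kilobase of exon, CRTC2 held 48.8% and 45.6% of the CRTC sum in control and between 34.7% and 42.7% in the knockdown libraries. The CRTC3 share was 41.3% and 42.4% in control and between 43.1% and 51.4% in the knockdown libraries. Its lowest knockdown shares, 43.1% and 44.7%, were those of EA1 siRNA 2 and lay close to control. Which gene held most in control depends on the length used. By longest transcript it was CRTC3 (53.5%, against 39.8% for CRTC2). The CRTC sum itself stood at 17.3 and 16.7 CPM per kilobase in control, 21.5 and 18.4 in the libraries of EA1 siRNA 1, and 19.8 and 17.7 in those of EA1 siRNA 2, all knockdown libraries being above the control libraries.

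CREBBP (ENSG00000005339, chr16:3725054-3880713), the acetyltransferase that phosphorylated CREB proteins recruit, was at 365 and 387 CPM in control, 314 and 316 CPM with EA1 siRNA 1, and 338 and 315 CPM with EA1 siRNA 2. The control libraries were the highest. The log2FC was 0.25 (95% interval 0.04 to 0.47) with EA1 siRNA 1 and 0.20 (-0.01 to 0.42) with EA1 siRNA 2, neither of which was called (edgeR adjusted p = 0.0583 and 0.128). With the replicate number as a block, CREBBP was called with EA1 siRNA 1 (edgeR adjusted p = 0.0394) and not with EA1 siRNA 2 (0.0978). With EA1 siRNA 1 the adjusted p passed the threshold in 6 of 12 alternatives and ranged from 0.0191, without EA1 siRNA 2 replicate 1, to 0.205. Without EA1 siRNA 2 replicate 2 it was 0.0200.

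Enzymes that control CRTC location were mixed. For this and the following lists, the shares of all genes called were 20.3% higher and 19.9% lower in control with EA1 siRNA 1, and 18.2% and 18.5% for EA1 siRNA 2, and the counts carry no set test. Of the 11 kinases and phosphatases listed, 4 were called higher in control and 2 lower with each EA1 siRNA (median log2FC 0.35 and 0.22). Those called in the same direction with both were SIK2 (log2FC 0.41 and 0.63) and SIK3 (0.46 and 0.57), kinases that hold CRTC proteins in the cytoplasm, which fell, and the calcineurin catalytic subunits PPP3CA (-1.03 and -0.84) and PPP3CB (-0.48 and -0.54), which remove those phosphates and rose. Calcineurin did not move as a whole: with EA1 siRNA 1 its other catalytic subunit PPP3CC (log2FC 0.48) and its regulatory subunit PPP3R1 (0.35) were called higher in control, and with EA1 siRNA 2 they were not called (0.42 and 0.09). Both were named after their values were seen. PPP3CA went from 32.7 CPM in control to 66.8 and 58.5 CPM. SIK1 counts may be split with its near-identical copy SIK1B, a gene named after its values were seen, which fell (log2FC 1.41 and 1.37).

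Of 19 listed genes, 17 of them tested, for CREB kinases, protein kinase A (PKA) subunits and PKA inhibitors, 4 were called higher in control and 4 lower with EA1 siRNA 1, and 3 and 4 for EA1 siRNA 2 (median log2FC -0.03 and -0.12). PRKAR1A, the regulatory subunit that holds PKA inactive without cAMP, fell from 3170 CPM to 1190 and 1210 CPM. PKIB, a PKA inhibitor, fell as well (log2FC 1.55 and 1.27), and so did the kinase RPS6KA1 (0.87 and 1.08), whereas the inhibitor PKIG rose (-0.92 and -0.69).

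Among 21 tested of 23 listed target genes of cAMP and CREB signalling, 10 were called higher in control and 5 lower with EA1 siRNA 1, and 13 and 4 for EA1 siRNA 2, with a median log2FC of 0.79 and 1.04. The nuclear receptors NR4A2 (72.5 CPM in control, 4.73 and 3.42 CPM in the knockdown) and NR4A3 (262, 65.8 and 84.4 CPM) fell, as did INHBA, a subunit of activin, from 3.77 to 0.719 and 0.44 CPM. The INHBA knockdown levels lie near a floor of 3 counts per library, 0.459 CPM with EA1 siRNA 1 and 0.477 CPM with EA1 siRNA 2. The size of its fall is therefore uncertain. AREG, an EGF receptor ligand, had 21 and 17 counts in the control libraries and 0 in each knockdown library, so that it was at least 5.8-fold and 5.59-fold lower against a floor of 3 counts per library. MITF stands in this list and in the lineage list, and it was called higher in the knockdown with each EA1 siRNA. So were PPARGC1A (log2FC -0.70 and -1.11) and IRS2 (-1.02 and -0.57), both named after their values were seen. Of the 13 listed targets called in the same direction with both EA1 siRNAs, 10 were higher in control. The share of all genes called in the same direction with both was not computed. No excess is therefore read from this count. Of the 7 lineage markers, 6 were called higher in the knockdown with EA1 siRNA 1 and 5 with EA1 siRNA 2.

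Other acetyltransferases and CBP partners were divided, with 6 of 15 called higher in control and 5 lower with EA1 siRNA 1, and 3 and 3 for EA1 siRNA 2 (median log2FC -0.06 and 0.08). CITED4, a CBP-binding protein, fell (log2FC 2.47 and 2.40), and so did the acetyltransferase KAT2A (0.66 and 0.78), whereas its paralog KAT2B rose (-0.86 and -1.20). CITED1, at 0 and 2 counts in control and between 6 and 24 in the knockdown libraries, was called higher in the knockdown with each EA1 siRNA.

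Of 16 tested FET partners and related RNA-binding proteins, 9 were called higher in control and 1 lower with EA1 siRNA 1, while 6 were called higher in control and 10 were not called with EA1 siRNA 2 (median log2FC 0.40 and 0.29). The splicing regulators HNRNPA1 (log2FC 0.87 and 0.57), HNRNPA3 (0.74 and 0.51) and HNRNPDL (0.43 and 0.55) fell, with TNPO1, the transportin that imports FET proteins into the nucleus (0.65 and 0.39). These log2FC values stand beside 0.49 and 0.46 for TAF15.

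Likeness of profile was measured as the root mean square difference in log2 CPM, centred on the control mean, over 6 libraries. The nearest genes to TAF15 were TRIM33 (0.031), MRPL12 (0.036) and KLC2 (0.037), and those to CREB1 were ZNF704 (0.055), MLXIP (0.061) and PCDH7 (0.064). OAS3 (0.094), POLR3E (0.094) and CHEK1 (0.095) came nearest to ATF1. For CREM the measure gave INSM1 (0.196), CHMP1B-AS1 (0.198) and HBEGF (0.222). INSM1 had at most 1 count per knockdown library and CHMP1B-AS1 between 1 and 7, so that their values on this scale are set in part by the prior count of 2 and show no likeness to CREM. The log2FC of HBEGF was 3.37 and 2.66, against 3.64 and 2.66 for CREM. The measure ranks genes over libraries that share depth and treatment, and it carries no test.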

How the data were processed

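Raw read counts per gene in 6 SU-CCS-1 libraries were used as deposited. Per the labels and the study's methods, the authors prepared stranded poly(A) libraries, aligned reads to hg38 with BWA-MEM, and counted them with featureCounts 1.6.3; the annotation and the strand setting are not given in the sources used here. The methods name 1 EA1 siRNA and the labels list 2, which were kept apart.

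Genes passed filterByExpr (minimum count 10, minimum total 15), leaving 14571 of 18118. All 6 libraries were fitted together in edgeR 4.0.16 (R 4.3.3, limma 3.58.1) with TMM scaling and the quasi-likelihood test, Benjamini-Hochberg adjusted over genes tested. The common biological coefficient of variation was 0.109. Levels per kilobase used the union of GENCODE 44 exons. Gene symbols are as deposited, and 2589 rows have none. Tables and motif scans used Python 3.11.15 and pandas 2.3.3.

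The members and the gene lists were chosen with earlier results of these data known. Named genes are all 9 members, the 3 genes nearest in profile to each member called in the same direction with both EA1 siRNAs, and up to 4 genes per list with the largest mean log2FC called in the same direction with both; marker values are given for the whole lineage list. Alternatives were RLE scaling, no count filter, at least 10 counts in every library, DESeq2 1.42.0, only the 4 libraries compared, each library left out, the replicate number as a block, and, for shares, the longest transcript. Deviations of same-numbered libraries correlated at 0.130, 0.199 and 0.144 over genes. The labels do not say what a number shares, and with 2 numbers pairing is not settled, so the block is given beside the call it changes. Counts cover sampling error only.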

Additional observations from a re-analysis of the deposited data

Results flagged for a closer look

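CREM differed between the EA1 siRNAs. Both libraries of EA1 siRNA 2 (21.0 and 20.9 CPM) were above both of EA1 siRNA 1 (11 and 10.2 CPM), a difference of 1.98-fold (edgeR adjusted p = 0.00937). ATF1 in the same libraries differed by a log2FC of -0.09 (95% interval -0.39 to 0.22). Whether the siRNAs differ in what they act on was not tested.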

How the results depend on the processing

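Of 324 recomputed log2FC values of members, 308 kept direction and call, 6 became calls, 4 lost theirs and 6 changed sign. The sign changes came from leaving out 1 library. For CRTC2 with EA1 siRNA 1 the log2FC ran from -0.17 to 0.32 over left-out libraries (-0.04 without control replicate 1, -0.17 without EA1 siRNA 1 replicate 2), and between the EA1 siRNAs from -0.18, without EA1 siRNA 1 replicate 1, to 0.34. For EWSR1 with EA1 siRNA 2 it ran from -0.046, without control replicate 2, to 0.16, with -0.0003 without EA1 siRNA 2 replicate 2, and between the EA1 siRNAs from -0.14 to 0.0066, the last without EA1 siRNA 2 replicate 1. With single libraries left out, between 5 and 6 members were called with EA1 siRNA 1, between 4 and 5 with EA1 siRNA 2, and between 0 and 1 between the EA1 siRNAs. With the replicate number as a block, 6, 5 and 1 members were called; the block changed 1 call, CREBBP with EA1 siRNA 1 (log2FC 0.25, adjusted p = 0.0394 in edgeR's quasi-likelihood test). RLE scaling (0.0453), DESeq2 (0.0494) and only 4 libraries (0.0233) also called it. Of all genes, 326 were called between the EA1 siRNAs, against 853 with the block, 176 with only 4 libraries, and between 33 and 788 with a library left out. By longest transcript, in control, EA1 siRNA 1 and EA1 siRNA 2, EWSR1 held 56.5%, 62.8% and 63.4% of the FET sum. ATF1 held 41.0%, 37.1% and 33.9% of the CREB sum, CREB1 5.01%, 47.0% and 38.8%, and CREM 54.0%, 16.0% and 27.3%. CRTC1 held 6.74%, 7.56% and 10.8% of the CRTC sum, CRTC2 39.8%, 31.8% and 32.9%, and CRTC3 53.5%, 60.6% and 56.4%. Where a library was left out, its condition kept 1, assumed to vary like the others. With 2 libraries per condition, small changes are not detectable, and gene counts do not separate EA1 from unrearranged transcripts or CREM isoforms.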
